A study of Caenorhabditis elegans with 10 samples.

Results

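Among the genes of Caenorhabditis elegans that are still known only by a sequence name, 163 probe sets for 147 genes were at least 2-fold brighter in gas-1 (fc21) worms than in the wild type, out of 7636 probe sets for 6717 such genes on the array and 22548 probe sets in all. A sequence name gives the cloned stretch of genome on which a gene was predicted and a number within it, as in F53A9.8. The members were chosen from the measured values: the platform annotation had to name exactly one gene, with a sequence name as its symbol, the mean log2 intensity of the mutant arrays had to be at least 1 above that of the wild-type arrays, and the lowest mutant array had to lie above the highest wild-type array. The differences between mutant and wild type given below for members are therefore a description of what the rule selected, and no test of them is given.

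Both groups were whole young adult worms fed OP50 bacteria and collected with an automated sorter. The mutant group carried gas-1 (fc21), a missense mutation in a gene for a subunit of complex I of the mitochondrial electron transport chain, and the other group was the wild-type strain N2 (Bristol). Each group had 5 biological replicates, 1 Affymetrix whole-genome array each, and each replicate was a sorted group of 1000 living adults, from which RNA of 500 to 1000 worms was extracted. The comparison was meant to find metabolic pathways downstream of the mutation. All worms of the mutant group are of one genotype carrying one allele, so what is given here is for that strain. The labels call the replicates biological without naming separate cultures, so p-values measure only the spread between these samples.

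Complex I takes electrons from NADH and passes them into the respiratory chain, which drives ATP synthesis. Worms with impaired respiratory chains are known to change the transcripts of many metabolic, detoxification and defence genes. Many worm genes without a given name belong to nematode-specific or rapidly duplicating families, whose copies often lie next to each other in the genome, and some worm genes that are neighbours on one strand are transcribed together as operons. Because such genes have no assigned function in the sources used here, the members are described by their levels, their background in the wild type and their neighbours. Sequences of the members were not used here.

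The 163 probe sets were 2.13% of the probe sets of unnamed genes. By the same rule 227 probe sets of named genes were higher, 1.73% of 13130, and 1.87% of all probe sets on the array. In the other direction, 35 probe sets of unnamed genes, 0.458%, were at least 2-fold lower without overlap. Limma, a linear model fitted over all probe sets, called 162 of the 163 member probe sets higher at an adjusted p under 0.05, against 7.54% of all probe sets, and nothing is read from that count because the rule used the same contrast. The median difference was 1.36 on the log2 scale over member probe sets and 1.43 over the 227 probe sets of named genes.

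All 147 genes matched the RefSeq gene table of assembly WBcel235, and 0 of them had another symbol there. RefSeq lists 139 as protein-coding, 6 as pseudogenes, 1 as a non-coding RNA (Y53F4B.45) and 1 as a long non-coding RNA (T09F5.12). The 6 pseudogenes were T28A11.6, D1065.3, Y102A5C.6, Y17D7B.7, W04B5.1 and T09E11.11. A pseudogene can share sequence with its functional relatives, so signal on its probe set need not come from the pseudogene itself. Of the member probe sets, 37, or 22.7%, have a suffix that marks probes shared with other transcripts, close to the 21.7% of all probe sets of unnamed genes. Chromosome V held the most members. There 54 of 1551 unnamed genes were members, or 3.48%, and on the other chromosomes the share was 1.05% (I, 10 of 948), 1.95% (II, 24 of 1233), 1.45% (III, 12 of 829), 2.52% (IV, 27 of 1071) and 1.9% (X, 20 of 1055). Named genes that met the same difference and gap, counted on 1 probe set a gene, made up 0.668% of the named genes on chromosome I, 1.76% on II, 1.64% on III, 2.57% on IV, 2.13% on V and 2.28% on X, so that among named genes V did not have the highest share.

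Most of the members were close to the 2-fold limit. Taking for each gene its member probe set with the largest difference, 88 of the 147 genes had a difference of 1 to under 1.5, 31 of 1.5 to under 2, 23 of 2 to under 3, and 5 of 3 or more. The median was 1.36, or 2.57-fold, and 28 genes were at least 4-fold higher. Member probe sets had mutant means between 4.83 and 12.23 (median 8.20) and wild-type means between 3.11 and 10.86 (median 6.54). In the mutant 139 of the 163 were brighter than the median of all probe sets, and in the wild type 87 were. The gap between the lowest mutant array and the highest wild-type array had a median of 0.65. It was at least 1 for 43 probe sets and under 0.1 for 4 probe sets, those of C40H1.7, C50F4.1, T02E9.5 and T13H5.1.

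**Figure D1:**
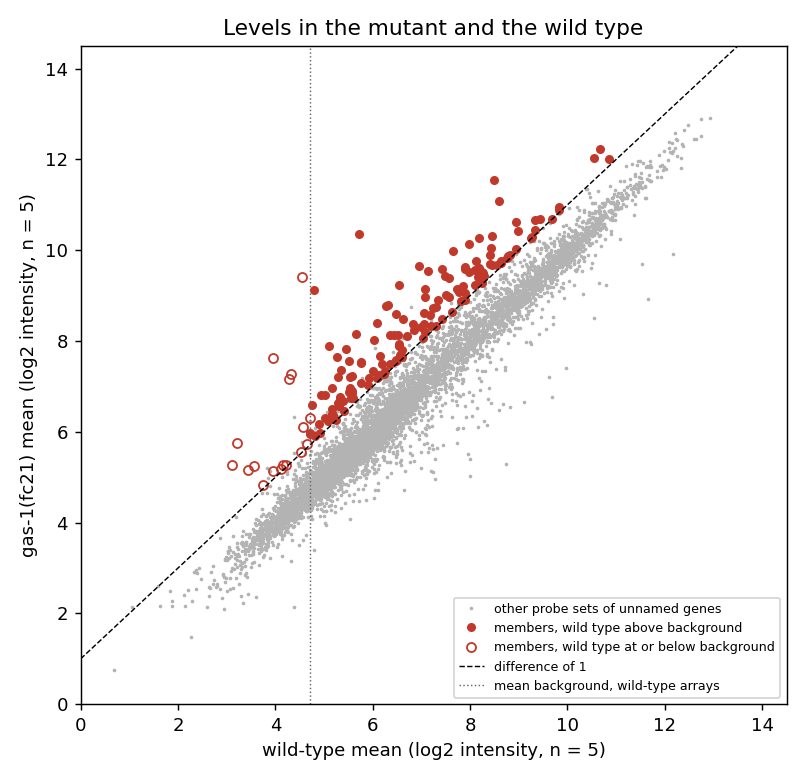
Mean log2 intensity in gas-1 (fc21) worms (vertical axis) against the wild type (horizontal axis) for every probe set of an unnamed gene, n = 5 arrays each. Members (red) lie on or above the dashed line of a difference of 1, and open circles are the 17 members whose wild-type mean was at or below the mean background of the wild-type arrays (dotted line, 4.70).

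Just inside the limit were F54D5.7, with means of 10.70 ± 0.13 in the mutant, against 9.69 ± 0.16 in the wild type (SD, n = 5, difference 1.01), Y43F8B.2 (difference 1.01) and F34H10.3 (difference 1.01). Just outside it, without overlap between the groups, were H14A12.5 (difference 1.00 to 2 decimals), with means of 7.25 ± 0.22 in the mutant, against 6.26 ± 0.53 in the wild type (SD, n = 5), R12C12.5 (difference 0.99) and C44E12.1 (difference 0.99). A further 42 probe sets of unnamed genes had a difference of at least 1 but overlapping groups and are no members. The limit thus runs through a continuous range: 29 probe sets without overlap had a difference of 1 to under 1.1, and 37 had one of 0.9 to under 1.

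Whether the wild type expressed a member at all was judged from 27 control probe sets for Bacillus genes that worms lack. They were used because on every array their median lay below that of all probe sets. Whether any of these control transcripts had been added to the RNA was not tested. The median of these controls was between 4.39 and 4.69 on the mutant arrays, against 4.43 to 4.75 on 4 of the wild-type arrays and 5.25 on the remaining one, replicate 1. Their mean over the wild-type arrays, 4.70, was taken as background. By that measure 17 member probe sets, 10.4%, were at or below background in the wild type, against 13.3% of all probe sets of unnamed genes, and 18 of the 227 probe sets of named genes (7.93%). With the highest wild-type array median in place of the mean, the number was 34. The mutant mean was above the mutant background on every member probe set. The single controls were spread widely, with wild-type means from 2.92 to 7.36, so a value near 4.70 is no sharp limit. In the wild type 106 of the 163 members were no brighter than the brightest control, while in the mutant 108 were brighter than it (7.34 there). The rule itself made the mutant means higher. The median wild-type mean was below that control over all probe sets (6.39) and over those of unnamed genes (6.05) as well. The 106 is thus not particular to the members. None of the 27 controls met the difference and gap that chose the members. Of all probe sets 1.87% met them, so with so few controls nothing is read from this. The controls' own differences lay between −0.29 and 0.26.

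**Figure D2:**
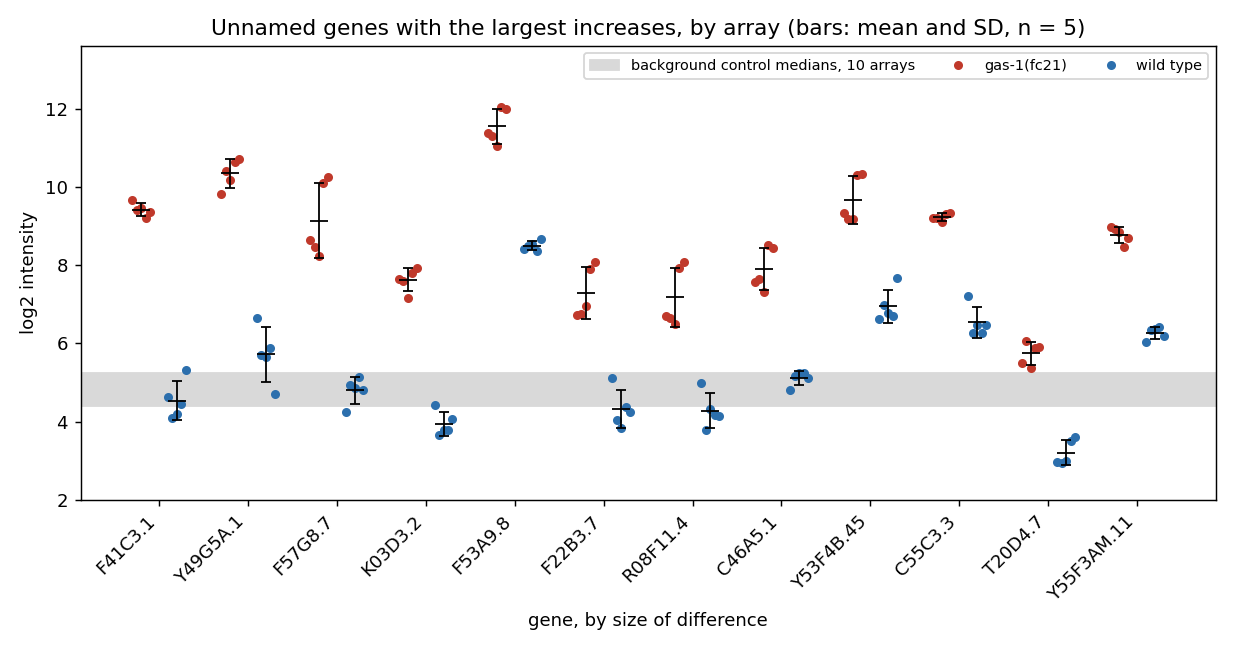
Log2 intensity on each array for the 12 unnamed genes with the largest differences, gas-1 (fc21) in red at the left of each pair and wild type in blue at the right, with mean and SD (n = 5). The grey band spans the background control medians of the 10 arrays, and F41C3.1, K03D3.2, F22B3.7, R08F11.4 and T20D4.7 had wild-type means at or below 4.70.

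The largest difference was that of F41C3.1, a protein-coding gene of chromosome II. Its log2 intensities were 9.65, 9.40, 9.45, 9.20 and 9.36 on mutant replicates 1 to 5, against 4.64, 4.08, 4.18, 4.45 and 5.33 on wild-type replicates 1 to 5. The mutant arrays lay close together (SD 0.16), and the wild-type mean (4.54 ± 0.50, SD, n = 5) was at background, so that 29.3-fold is a ratio to background, and against the background level the mutant was at least 26.1-fold higher. Y49G5A.1 followed with 9.81, 10.40, 10.18, 10.64 and 10.72 in the mutant, against 6.66, 5.71, 5.65, 5.89 and 4.70 in the wild type, a difference of 4.63 or 24.8-fold. The wild-type mean of Y49G5A.1, 5.72 ± 0.70 (SD, n = 5), was above background, with replicate 1 the brightest wild-type array and replicate 5 the dimmest.

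F57G8.7 split the mutant arrays. It had 8.63, 8.47, 8.23, 10.09 and 10.25 in the mutant, against 4.25, 4.93, 4.87, 5.15 and 4.81 in the wild type. Mutant replicates 4 and 5 lay well above replicates 1 to 3, and the difference was 4.33 over all arrays and 3.46 without the 4 arrays described below. The wild-type mean of F57G8.7, 4.80 ± 0.34 (SD, n = 5), was only just above background (4.70), with replicate 1 below it. Its difference is therefore close to a ratio to background. K03D3.2 had 7.65, 7.60, 7.15, 7.80 and 7.93 in the mutant, against 4.43, 3.67, 3.79, 3.78 and 4.07 in the wild type. All wild-type arrays of K03D3.2 were below 4.70, so its 12.8-fold is at least 7.59-fold against background.

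F53A9.8 was bright in both groups. Its values were 11.37, 11.30, 11.03, 12.05 and 11.98 in the mutant, against 8.42, 8.48, 8.54, 8.37 and 8.68 in the wild type, an 8.28-fold difference (3.05, SE 0.19) on a probe set whose suffix marks shared probes. F22B3.7 had 6.72, 6.75, 6.96, 7.90 and 8.09 in the mutant, against 5.12, 4.03, 3.85, 4.37 and 4.25 in the wild type. R08F11.4 had 6.70, 6.66, 6.50, 7.91 and 8.08 in the mutant, against 5.00, 3.79, 4.32, 4.18 and 4.14 in the wild type. Both were at background in the wild type and higher on mutant replicates 4 and 5 than on 1 to 3, and against background they were at least 5.97-fold (F22B3.7) and 5.54-fold (R08F11.4) higher. The probe set of R08F11.4 also has a suffix that marks shared probes.

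C46A5.1 had 7.58, 7.65, 7.32, 8.52 and 8.43 in the mutant, against 4.81, 5.17, 5.24, 5.23 and 5.11 in the wild type. Every wild-type array was a little above the mean background, and the difference was 6.90-fold (2.79, SE 0.23). The non-coding RNA Y53F4B.45 was read on 2 member probe sets. The brighter had 9.32, 9.17, 9.17, 10.30 and 10.34 in the mutant, against 6.61, 6.99, 6.78, 6.69 and 7.67 in the wild type. The dimmer averaged 5.26 ± 0.55 in the mutant, against 3.11 ± 0.70 in the wild type (SD, n = 5), below background in the wild type, so its difference of 2.16 is a ratio to background while the 2.71 of the brighter one is not.

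C55C3.3 and Y55F3AM.11 were among the steadiest of the 12 genes in the mutant. C55C3.3 had 9.20, 9.20, 9.09, 9.31 and 9.33 in the mutant, against 7.21, 6.26, 6.46, 6.28 and 6.48 in the wild type, a 6.45-fold difference. Y55F3AM.11 had 8.98, 8.92, 8.84, 8.47 and 8.69 in the mutant, against 6.03, 6.35, 6.36, 6.42 and 6.19 in the wild type, a 5.70-fold difference (2.51, SE 0.12). Y55F3AM.11 was lowest on mutant replicates 4 and 5, unlike most of the 12. T20D4.7 had 5.50, 6.07, 5.38, 5.88 and 5.90 in the mutant, against 2.97, 2.94, 3.01, 3.50 and 3.60 in the wild type. Its whole wild-type range lay under background, and its 5.82-fold is at least 2.06-fold against background.

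A further 12 genes had a member probe set at background in the wild type. Against the background level, Y15E3A.4 (on the dimmest of its 3 member probe sets) was at least 3.04-fold higher, T19C9.8 2.63-fold and R03G8.3 2.05-fold. For the remaining 9 genes, C06E4.8, C54F6.20, F58E2.2, F11F1.1 (on its member probe set), T05H4.15, Y54F10BM.3, EEED8.2, R09D1.12 and the dim probe set of Y53F4B.45, the bound was between 1.09-fold (T05H4.15) and 1.80-fold (R09D1.12). Their measured folds, between 2.04 and 4.46, therefore exceed what lies above the background level. The other probe set of F11F1.1 was above background in both groups and hardly differed, at 6.72 ± 0.06 in the mutant, against 6.68 ± 0.41 in the wild type (SD, n = 5).

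At the other end, 5 genes had the brightest member probe sets in the wild type, which is a statement on probe sets and not on amounts of transcript. Y39B6A.1 had 11.97, 12.05, 12.12, 11.91 and 12.01 in the mutant, against 10.70, 10.73, 10.74, 10.82 and 11.31 in the wild type, where replicate 5 stood above the others. C35B1.5 had 11.84, 11.88, 11.82, 12.31 and 12.34 in the mutant, against 10.54, 10.52, 10.53, 10.48 and 10.65 in the wild type. For both genes the groups were clearly apart, by 0.59 for Y39B6A.1 and 1.17 for C35B1.5. VF13D12L.3, whose protein resembles malate and lactate dehydrogenases, averaged 10.95 ± 0.13 in the mutant, against 9.83 ± 0.18 in the wild type (SD, n = 5). T12B3.3 had 10.88 ± 0.27 in the mutant, against 9.82 ± 0.11 in the wild type. F54D5.7, the worm counterpart of human glutaryl-CoA dehydrogenase of lysine and tryptophan breakdown, was the member nearest the limit. These probe sets were well above every background control in both groups. Their folds, 2.22, 2.81, 2.18, 2.08 and 2.01 in the order given, are thus not ratios to background. Another member probe set of Y39B6A.1 had a difference of 1.56. Second probe sets of T12B3.3 and VF13D12L.3, which are no members, had 0.98 and 0.56. That of VF13D12L.3 was dim, at 5.56 ± 0.17 in the mutant, against 5.00 ± 0.24 in the wild type (SD, n = 5).

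Several members had more than 1 probe set on the array, which gives each such gene a second reading on the same arrays. Of the 34 such genes, 12 had only member probe sets, and 22 had 24 probe sets that did not meet the rule. Between probe sets that met it, differences within a gene lay 0.001 to 0.555 apart. The rule kept all of them at 1 or more, so no agreement is read from this. T27E4.7 had 1.90 and 1.83, F45E1.4 had 1.41 and 1.40, and Y15E3A.4 had 1.61, 1.53 and 1.38. Further apart were C46C2.5 (1.88 and 1.44), Y39B6A.1 (1.56 and 1.15) and Y53F4B.45 (2.71 and 2.16). Of the 24 probe sets that did not meet the rule, 22 had a higher mutant mean and 4 had a difference of at least 1. In 11 of the 24 the mutant was higher without overlap, against 8.27% of all probe sets. The median difference was 0.55, against 0.00 over all probe sets on the array. These 24 are what the rule left over, for a smaller difference or for overlapping groups, and not a random sample.

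Some of these second readings were far below the first. The pseudogene D1065.3 was at 7.67, 7.73, 7.68, 7.62 and 7.55 in the mutant, against 5.34, 5.04, 5.42, 5.18 and 5.34 in the wild type on its member probe set (difference 2.39). Its other probe set averaged 5.62 ± 0.16 in the mutant, against 5.19 ± 0.07 in the wild type (SD, n = 5, difference 0.43). F41E6.5 had a difference of 1.85 on its member probe set, with a shared-probe suffix, and of −0.06 on the other, where the means were 5.75 ± 0.22 in the mutant, against 5.81 ± 0.21 in the wild type. F55G1.15 had 1.84 on its member probe set, and on the other the groups overlapped, at 5.67 ± 0.30 in the mutant, against 4.57 ± 0.55 in the wild type. On the member probe set its wild-type mean was 4.75, only just above background (4.70), and on the other it was below.

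By name, 8 clones held more than 1 member gene, 17 genes in all. In the RefSeq order of protein-coding genes, 10 of the 147 member genes, or 6.80%, were next to another member on either side, and 109 of 6541 other unnamed genes, or 1.67%, were next to one. No test of this was made, and neighbours of like sequence can share probes. The adjacent members formed 5 runs, counting 11 genes because the pseudogene Y17D7B.7, placed among protein-coding genes, touches Y17D7B.4. These were F53A9.6, F53A9.7 and F53A9.8 on chromosome X, and on chromosome V the pairs C50F4.9 and C50F4.1, F58B4.5 and F17C11.12, T16G1.5 and T16G1.4, and Y17D7B.4 and Y17D7B.7.

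The 3 genes of clone F53A9 differed by increasing amounts from F53A9.6 to F53A9.8. F53A9.6 had 10.44, 10.18, 10.06, 11.26 and 11.22 in the mutant, against 9.04, 8.86, 8.98, 8.89 and 8.93 in the wild type (difference 1.69). F53A9.7 had 7.96, 7.96, 7.46, 9.36 and 9.28 in the mutant, against 6.12, 5.96, 6.18, 6.09 and 6.13 in the wild type (difference 2.31). All 3, with F53A9.8 above (difference 3.05), were higher on mutant replicates 4 and 5 than on 1 to 3, and their wild-type arrays lay close together. F53A9.6 and F53A9.8 were read on probe sets with a shared-probe suffix, and F53A9.7 was not. The genes on either side of the run, F53A9.1 (0.89) and F53A9.9 (0.51), had smaller differences.

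F58B4.5 had 9.24, 9.56, 9.53, 9.78 and 9.61 in the mutant, against 7.02, 6.89, 7.04, 7.02 and 7.68 in the wild type, a 5.32-fold difference. Its neighbour F17C11.12 had 8.64, 8.54, 8.70, 8.51 and 8.82 in the mutant, against 7.65, 7.53, 7.56, 7.63 and 7.75 in the wild type, a 2.03-fold difference. Neither probe set has a shared-probe suffix. C50F4.1 and C50F4.9 varied widely within the wild type. C50F4.1 had 7.14, 7.24, 7.05, 7.90 and 8.27 in the mutant, against 4.12, 6.41, 5.53, 5.79 and 6.97 in the wild type. C50F4.9 had 6.54, 6.56, 6.21, 6.23 and 6.28 in the mutant, against 4.04, 5.34, 5.25, 5.39 and 5.93 in the wild type. In both, wild-type replicate 1 was lowest and replicate 5 highest, and the groups were separated by only 0.08 for C50F4.1 and 0.28 for C50F4.9. A second member probe set of C50F4.1, with a shared-probe suffix, had a difference of 1.45 and a gap of 0.36.

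T16G1.5 and T16G1.4 were both read on probe sets with a shared-probe suffix. T16G1.5 had 6.44, 6.30, 6.34, 6.42 and 7.04 in the mutant, against 4.46, 5.26, 5.25, 5.56 and 5.29 in the wild type, and T16G1.4 averaged 5.91 ± 0.40 in the mutant, against 4.81 ± 0.23 in the wild type (SD, n = 5). Next to them T16G1.6 (0.83) and T16G1.7 (0.61) also had positive differences below the limit, and T16G1.3 on the other side had −0.03. With a wild-type mean only just above background (4.70), the difference of T16G1.4 is close to a ratio to background. In the last pair Y17D7B.4 averaged 9.88 ± 0.48 in the mutant, against 8.79 ± 0.29 in the wild type, and Y17D7B.7 had 8.62 ± 0.86 in the mutant, against 7.04 ± 0.19 in the wild type (SD, n = 5). The large spread of Y17D7B.7 in the mutant came from replicates 4 and 5, at 9.47 and 9.65, against 8.04, 8.07 and 7.88 on replicates 1 to 3.

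Named genes next to members could not be members themselves, so the rule did not choose them by value. The 294 places beside the 147 member genes held 11 members, 102 places with other unnamed genes that were measured, 58 with genes that no probe set names alone, and 123 different named genes that were measured, each read on its brightest probe set. Of these 123, 24 rose, 5 fell and 94 did not pass limma's test at an adjusted p under 0.05. The 24 are 19.5%, against 7.73% of the 10017 named protein-coding genes tested, and the 5 are 4.07%, against 4.32%. These shares were not tested against each other, because neighbouring genes are not independent, and 5 of the 24 were read on probe sets with a shared-probe suffix. Some of these neighbours, cyp-33C8 among them, were already known from earlier results of these data. By the members' own criteria, 11 of the 123 were at least 1 higher without overlap, 8.94% against 1.87%. The median difference of the 123 was 0.04, against 0.01 for all named genes, so most neighbours were close to no change.

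**Figure D3:**
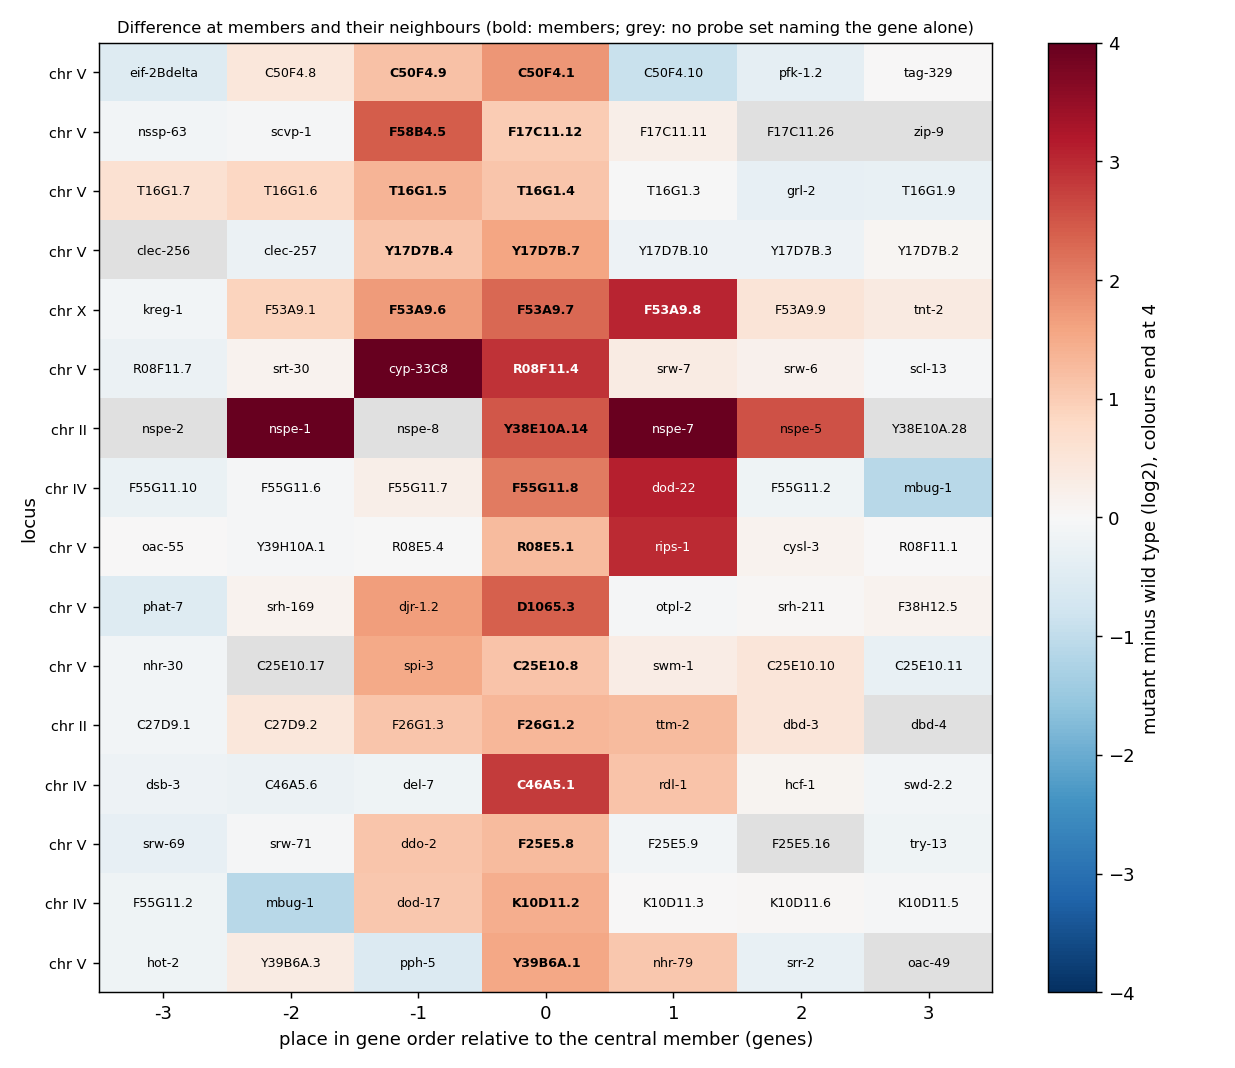
Mutant minus wild-type difference (log2, colour) in 16 rows, each with a central member and 3 genes on each side in gene order. Bold names are members and grey cells have no probe set that names the gene alone. The rows of F55G11.8 and K10D11.2 overlap on chromosome IV, and both show F55G11.2 and mbug-1. The upper 5 rows are the runs of adjacent members, the other 11 are members beside a named gene that rose by at least 1, and outside the members and those neighbours most cells are near 0.

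The named neighbour with the largest rise was cyp-33C8, a cytochrome P450 gene next to R08F11.4. Its values were 10.14, 10.58, 10.60, 11.06 and 10.94 in the mutant, against 5.54, 5.71, 5.33, 5.45 and 6.11 in the wild type, a difference of 5.03 (SE 0.19, limma adjusted p = 2.28e-07). On the other side of R08F11.4, srw-7 had a difference of 0.32. A member, Y38E10A.14, lay within the nspe cluster of chromosome II, a family of small nematode-specific peptides, next to nspe-7. Y38E10A.14 had 8.73, 8.82, 8.60, 8.97 and 8.88 in the mutant, against 6.02, 6.02, 6.34, 6.13 and 7.08 in the wild type. The probe sets of Y38E10A.14 and nspe-7 both have a suffix that marks shared probes. For nspe-7 the values were 8.72, 8.69, 7.74, 7.97 and 7.69 in the mutant, against 4.29, 4.03, 4.05, 4.11 and 4.52 in the wild type (difference 3.96, SE 0.22, limma adjusted p = 2.47e-06), and its wild-type arrays were all below the mean background. Further along the cluster nspe-1 had a difference of 5.44 and nspe-5 one of 2.54, while nspe-2 and nspe-8 have no probe set that names them alone.

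The gene dod-22, named for being downstream of the insulin-pathway factor DAF-16, lay next to F55G11.8. It had 8.79, 8.07, 7.90, 8.15 and 8.31 in the mutant, against 5.70, 4.92, 5.16, 5.06 and 4.82 in the wild type (difference 3.11, SE 0.20, limma adjusted p = 5.78e-06). F55G11.8 itself had 8.99, 8.54, 8.41, 9.87 and 9.89 in the mutant, against 7.10, 7.07, 7.13, 7.16 and 6.89 in the wild type. The 2 genes differed in how the mutant arrays were ordered: F55G11.8 was highest on replicates 4 and 5 and dod-22 on replicate 1. Further along the same stretch of chromosome IV lay F55G11.2 (difference −0.18), mbug-1 (−1.10), dod-17 (1.09) and another member, K10D11.2 (1.44). The gene rips-1, next to R08E5.1, had 10.22, 10.19, 10.32, 11.03 and 10.87 in the mutant, against 7.84, 7.72, 7.70, 7.64 and 6.81 in the wild type (difference 2.99, SE 0.23, limma adjusted p = 2.26e-05). R08E5.1 averaged 5.98 ± 0.27 in the mutant, against 4.72 ± 0.23 in the wild type (SD, n = 5). That wild-type mean was only just above background (4.70), so the difference of R08E5.1 is close to a ratio to background.

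The gene djr-1.2, a relative of the human Parkinson's disease gene DJ-1, rose next to the pseudogene D1065.3. It had 6.74, 6.84, 6.87, 6.29 and 6.42 in the mutant, against 5.59, 4.60, 5.02, 4.80 and 4.82 in the wild type (difference 1.67, SE 0.19, limma adjusted p = 0.000324). The other 6 named neighbours at least 1 higher without overlap were spi-3 beside C25E10.8, ttm-2 beside F26G1.2, rdl-1 beside C46A5.1, ddo-2 beside F25E5.8, dod-17 beside K10D11.2 and nhr-79, a nuclear hormone receptor gene, beside Y39B6A.1, of which nhr-79 and ddo-2 were read on probe sets with a shared-probe suffix. Without spi-3 their differences were between 1.07 (nhr-79) and 1.28 (ttm-2). For spi-3 no fold is given, because it averaged 4.63 ± 0.34 in the mutant, about the background of the mutant arrays (4.60), against 3.10 ± 0.69 in the wild type, below background (SD, n = 5). Lactate dehydrogenase ldh-1 rose by 0.74 next to F13D12.3, which averaged 9.21 ± 0.11 in the mutant, against 7.85 ± 0.17 in the wild type (SD, n = 5). These 7 were named after their values were seen.

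Some neighbours went the other way. The C-type lectin gene clec-47, next to the long non-coding RNA T09F5.12, had 8.19, 7.63, 7.95, 8.21 and 8.44 in the mutant, against 10.82, 10.75, 10.86, 10.85 and 9.85 in the wild type (difference −2.54, SE 0.22, limma adjusted p = 4.51e-05), while T09F5.12 averaged 6.89 in the mutant, against 5.51 in the wild type. The other 4 that fell, frk-1, ugt-22, ergi-3 and hrpc-1, had differences between −0.73 and −0.31. Among 101 unnamed neighbours that were measured and are no members, 50 had a higher mutant mean, 7 rose and 5 fell, with a median difference of 0.00. Over all probe sets 7.54% rose and 4.28% fell. Unnamed neighbours that met the rule are members and were left out, so these rises cannot be set against those of named neighbours.

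The members were not equally high on all mutant arrays. Mutant replicates 4 and 5 were both above replicates 1 to 3 on 111 of the 163 member probe sets (68.1%), both below on 13 (7.98%), and mixed on 39, while over all probe sets these 2 replicates were both above on 30.1% and both below on 15.6%. The mean over member probe sets was 8.06, 8.07, 7.97, 8.46 and 8.54 on mutant replicates 1 to 5, against 6.53, 6.64, 6.64, 6.63 and 6.80 on wild-type replicates 1 to 5. In the wild type, replicate 5 was the highest array on 81 member probe sets (49.7%, against 22.6% of all probe sets) and replicate 1 the lowest on 68 (41.7%, against 26.9%). The median SD between mutant arrays was 0.32 for members and 0.18 for all probe sets, and between wild-type arrays it was 0.26 and 0.21. The rule chose the members by these same values, and a high mutant array raises the mean that it used. These shares and SDs therefore only describe the chosen probe sets, and their difference from all probe sets was not tested.

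**Figure D4:**
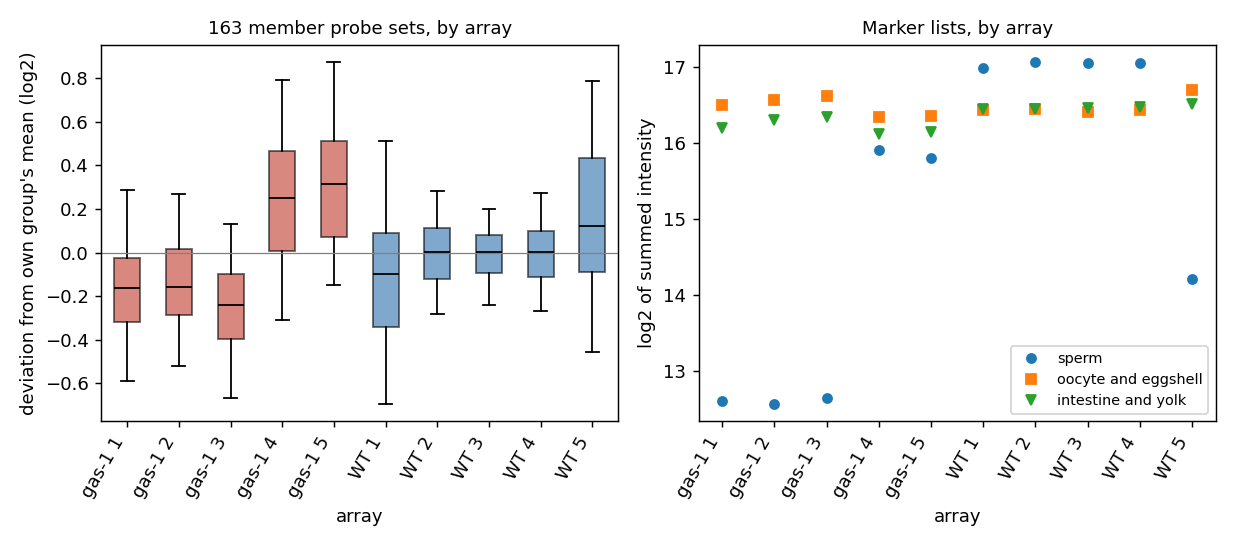
Left, deviation of the 163 member probe sets from their own group's mean (log2) on each array, with boxes from the lower to the upper quartile, a line at the median and whiskers at percentiles 5 and 95; the medians were 0.25 and 0.32 on mutant replicates 4 and 5 and 0.12 on wild-type replicate 5. Right, log2 of the summed intensity of 3 marker lists on each array, with the sperm list lowest on mutant replicates 1 to 3.

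Transcripts of sperm differed between the same arrays. The summed intensity of 36 measured sperm markers (of 50 listed) was 12.61, 12.57, 12.65, 15.90 and 15.81 on mutant replicates 1 to 5, against 16.99, 17.06, 17.04, 17.05 and 14.20 on wild-type replicates 1 to 5 (log2). Members and sperm markers were thus both higher on mutant replicates 4 and 5, while on wild-type replicate 5 members were high and sperm markers low. Of the 36, limma called 4 lower and 0 higher at an adjusted p under 0.05 (32 lower and 0 higher at an unadjusted p under 0.05), the median difference was −2.59 against 0.00 over all probe sets, and only try-5 was at background. Sums of 20 oocyte and eggshell markers ranged from 16.34 to 16.61 in the mutant, against 16.41 to 16.70 in the wild type, with 0 called in either direction by limma, also at an unadjusted p under 0.05. For 12 measured intestine and yolk markers (of 13), transcripts made in adult worms, the sums were 16.11 to 16.34 in the mutant, against 16.44 to 16.52 in the wild type. Limma called cpr-1 lower and 0 of the 12 higher (5 lower and 0 higher at an unadjusted p under 0.05), and their median difference was −0.25. None of the markers is a member. In whole worms, fewer cells of a type and less RNA per cell cannot be told apart, and the part of these differences in the members' values was not tested.

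Without the 4 arrays that stood apart in earlier results of these data (mutant replicates 4 and 5, wild-type replicates 1 and 5), the smallest difference of a member probe set was 0.39, a sign that the rule itself fixes. The members' median was 1.22 in place of 1.36, and 116 of the 163 still met the rule. The set chosen anew on those 6 arrays had 157 probe sets. Of the single genes named, C46A5.1 then had 2.30 in place of 2.79, F57G8.7 3.46 in place of 4.33, F34H10.3 0.69 in place of 1.01 and Y17D7B.4 0.68 in place of 1.09, while F41C3.1 had 5.26 in place of 4.87. Under that choice of arrays 20 of the 123 named neighbours rose, 16.3% against 10.2% of all named genes. More of these neighbours also fell than with all arrays, as did more of all probe sets.

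Of the series as a whole, array medians were between 6.22 and 6.61, 1701 probe sets rose (7.54%) and 964 fell (4.28%). The mutated gene itself, gas-1, was higher in the mutant on its brighter probe set, whose suffix marks shared probes. Its means were 11.11 ± 0.21 in the mutant, against 10.44 ± 0.19 in the wild type (SD, n = 5, difference 0.67, limma adjusted p = 0.00567). This does not check the labels, because a missense allele need not change its transcript.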

How the data were processed

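One Affymetrix array per sample gave 22625 deposited values. The scale of the deposited values is taken as log2 from their range; the software, background correction and normalization behind them are not stated by the labels or file headers, and the values were used as deposited. The 77 Affymetrix controls were left out. No values of other samples were present. Symbols came from the platform annotation and the RefSeq table of WBcel235, which was used only for names, gene type, chromosome and order; its coordinates are not given. Neighbours are the nearest protein-coding gene on each side, by start.

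Limma 3.58.1 in R 4.3.3 was fitted on all 22548 probe sets (lmFit, eBayes, 2-sided, Benjamini-Hochberg), genotype as the only term. It was checked on simulated data. A fold is 2 raised to the difference, mutant minus wild type. A bound sets the mutant mean against the wild-type mean of the background control medians. No detection calls were used. Biological replicates are as the labels call them. The number of arrays limits the precision.

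The members, lists and tests were chosen with earlier results of these data known. Genes named were the 12 with the largest difference, 5 brightest in the wild type, adjacent members, 3 on each side of the limit, up to 10 renamed in RefSeq (none were), the 6 called named neighbours with the largest change, 6 with several probe sets, and gas-1. Marker lists were for sperm, oocyte and eggshell, and intestine and yolk. Alternatives were other scalings, dim filters, limma settings, a replicate block, arrays left out, other limits and background levels, 2 genes on each side, and probe sets without shared-probe suffixes.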

Additional observations from a re-analysis of the deposited data

Results flagged for a closer look

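Among the 88 groups of 5 arrays examined for the 44 probe sets named, 11 held an array far from the other 4. Chance alone gives about 1 in 20 for independent groups. These groups share the same arrays, and most were chosen by the rule, so the count cannot be set against that rate. Wild-type replicate 5 was the distant array in 7 of them. It was high for Y39B6A.1 (11.31, the others 10.70 to 10.82), F58B4.5 (7.68, the others 6.89 to 7.04) and T27E4.7 (7.88, the others 6.79 to 6.94). It was low for F34H10.3 (7.57, the others 7.92 to 8.03), rips-1 (6.81, the others 7.64 to 7.84), clec-47 (9.85, the others 10.75 to 10.86) and gas-1 (10.12, the others 10.47 to 10.57). Wild-type replicate 1 was distant in 3, high for C55C3.3 (7.21, the others 6.26 to 6.48) and low for T16G1.5 (4.46, the others 5.25 to 5.56) and C44E12.1 (6.07, the others 6.25 to 6.30). Among mutant arrays, replicate 5 was high for T16G1.5 (7.04, the others 6.30 to 6.44).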

How the results depend on the processing

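The count of members was between 143 and 205 with 1 array left out, of which 141 to 163 were among the 163, 145 and 138 under quantile normalization and median centring, 145 with the dimmest 33% of probe sets left out, and 157 with mutant replicates 4 and 5 and wild-type replicates 1 and 5 left out. A limit of 1.5-fold gave 363 and one of 3-fold gave 54. Members at background in the wild type numbered 34 with the highest array's background and 53 with the lowest 33% of probe sets as background, and 16 to 21 with 1 array left out. Named neighbours that rose numbered 16 to 22, and those that fell 3 to 5, with 1 array left out; with the 2 nearest genes on each side 39 rose and 11 fell of 263. Array weights gave 11 neighbours that fell, and leaving out those 4 arrays gave 12. Falls over all probe sets increased as well under these settings, from 964 to 2535 and 2522. Chosen after seeing the data, reading members and neighbours only on probe sets without a shared-probe suffix gave 16 of 87 that rose, 18.4% against 7.04% of named genes. The share of neighbours that rose was above that of all named genes in all 20 alternatives. These alternatives used the members already chosen, or some of them, and the same arrays, or some of them. They are thus not independent readings, and the share itself was not tested. Over all probe sets, array weights gave 2969 rises and 2535 falls, rises were 1176 to 1868 and falls 479 to 1609 with 1 array left out (1609 without wild-type replicate 5, 479, 493 and 480 without wild-type replicates 2, 3 and 4), and 2522 fell with those 4 left out. Replicate numbers gave no sign of pairing the samples, since deviations of same-numbered arrays correlated between −0.18 and 0.10. With so few arrays, some of which stood apart, this cannot exclude a pairing. With the replicate block 1069 probe sets rose and 370 fell, and 13 neighbours rose and 2 fell. Under the block gas-1 (adjusted p = 0.0517) and H14A12.5 (0.0826, and 0.0641 under quantile normalization) did not pass. Most single genes named are members, whose sign the rule fixes when arrays are left out, so their values under alternatives are no sign of stability.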
